A study of Mus musculus with 2 samples.

Results

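Transcripts of chemokines and their receptors were read in inguinal white adipose tissue, the fat pad under the skin of the groin, taken from C57BL/6J males. The mutant group (DKO) carried Ucp1-/- and ApoE-/- and lacked both uncoupling protein 1, the heat-releasing carrier of brown and beige adipocytes, and apolipoprotein E, a lipoprotein ligand. The comparison group (ApoE-KO) carried ApoE-/- alone, so both groups lacked apolipoprotein E. The littermates, kept at 23 °C, were moved to a high-fat diet at 9 weeks of age and stayed on it for 9 weeks. RNA of 3 mice per genotype was mixed and hybridised to 1 Affymetrix array, which left 2 arrays and 1 value per gene and genotype. The members were all genes whose array symbol named a CC, CXC, CX3C or XC chemokine, a receptor of these families or an atypical chemokine receptor. They came to 55 of 19938 named genes, with 34 ligands, 17 receptors and 4 atypical receptors.

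Chemokines are small secreted proteins that guide the movement of leukocytes, and their families are named after the spacing of conserved cysteines near the amino terminus. They bind G protein-coupled receptors on the moving cell, while atypical receptors take up or present chemokines without the usual G protein signal. In fat, the CCL2 and CCR2 pair is known for drawing monocytes into the tissue in obesity. The groin depot also holds a lymph node, where CCL19 and CXCL13 mark out the T cell and B cell areas.

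Values are deposited linear intensities, and a difference is the log2 intensity of the DKO array minus that of the ApoE-KO array. With 1 array per genotype the spread between mice was not measured, so no difference has a test, an error or a p-value, and sizes describe these 2 arrays. A gene was set on or above an expression floor when its mean over both arrays reached an intensity of 196.9, the median of named probe sets. The floor is a convention and not a detection limit. In pooled whole tissue, fewer cells of a type and less RNA per cell cannot be told apart.

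The arrays had median intensities of 152.1 (DKO) and 157.65 (ApoE-KO) over 35557 probe sets. Among the 9891 genes on or above the floor, the middle 90% ran from -0.52 to 0.76. The Ucp1 probe set read 2230 in the DKO array and 219 in the ApoE-KO array, which goes against the label if its probes lie in the deleted part, and that position was not given in the sources used here. Every direction below therefore rests on the array labels. Apoe, disrupted in both genotypes, read 502 in the DKO-labelled array and 589 in the ApoE-KO-labelled array. All 7 measured adipocyte markers lay above the floor and differed by -0.12 to 0.12, which bears on adipose tissue in general, and no gene particular to the inguinal depot was checked. Skeletal muscle transcripts were far lower in the DKO-labelled array, with a sum over 8 markers of 1313 there and 26804 in the ApoE-KO-labelled array, and their part in the differences below was not tested.

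Chemokine system transcripts were mostly lower in the DKO-labelled array, by modest amounts. On or above the floor lay 23 of the 55 members, and 20 of these were lower and 3 higher. The share lower was 87%, where all genes above the floor were 51.4% lower and 48.2% higher. Their median difference was -0.26, against -0.01 for all genes above the floor. The differences of the 23 reached from -0.80 (Cxcl13) to 0.49 (Ccl25). A difference of at least 1.5-fold downward was seen in 3 of the 23 (13%), against 3.73% of all genes above the floor, and these were Cxcl13, Cxcl10 and Ackr2. With an offset of 50 added to each intensity, Ackr2 no longer reached that size. At least 1.5-fold upward there were 0 members, against 7.57% of all genes. At 2-fold the members counted 0 lower, against 0.698% of genes, and 0 higher, against 2.79%.

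**Figure D1:**
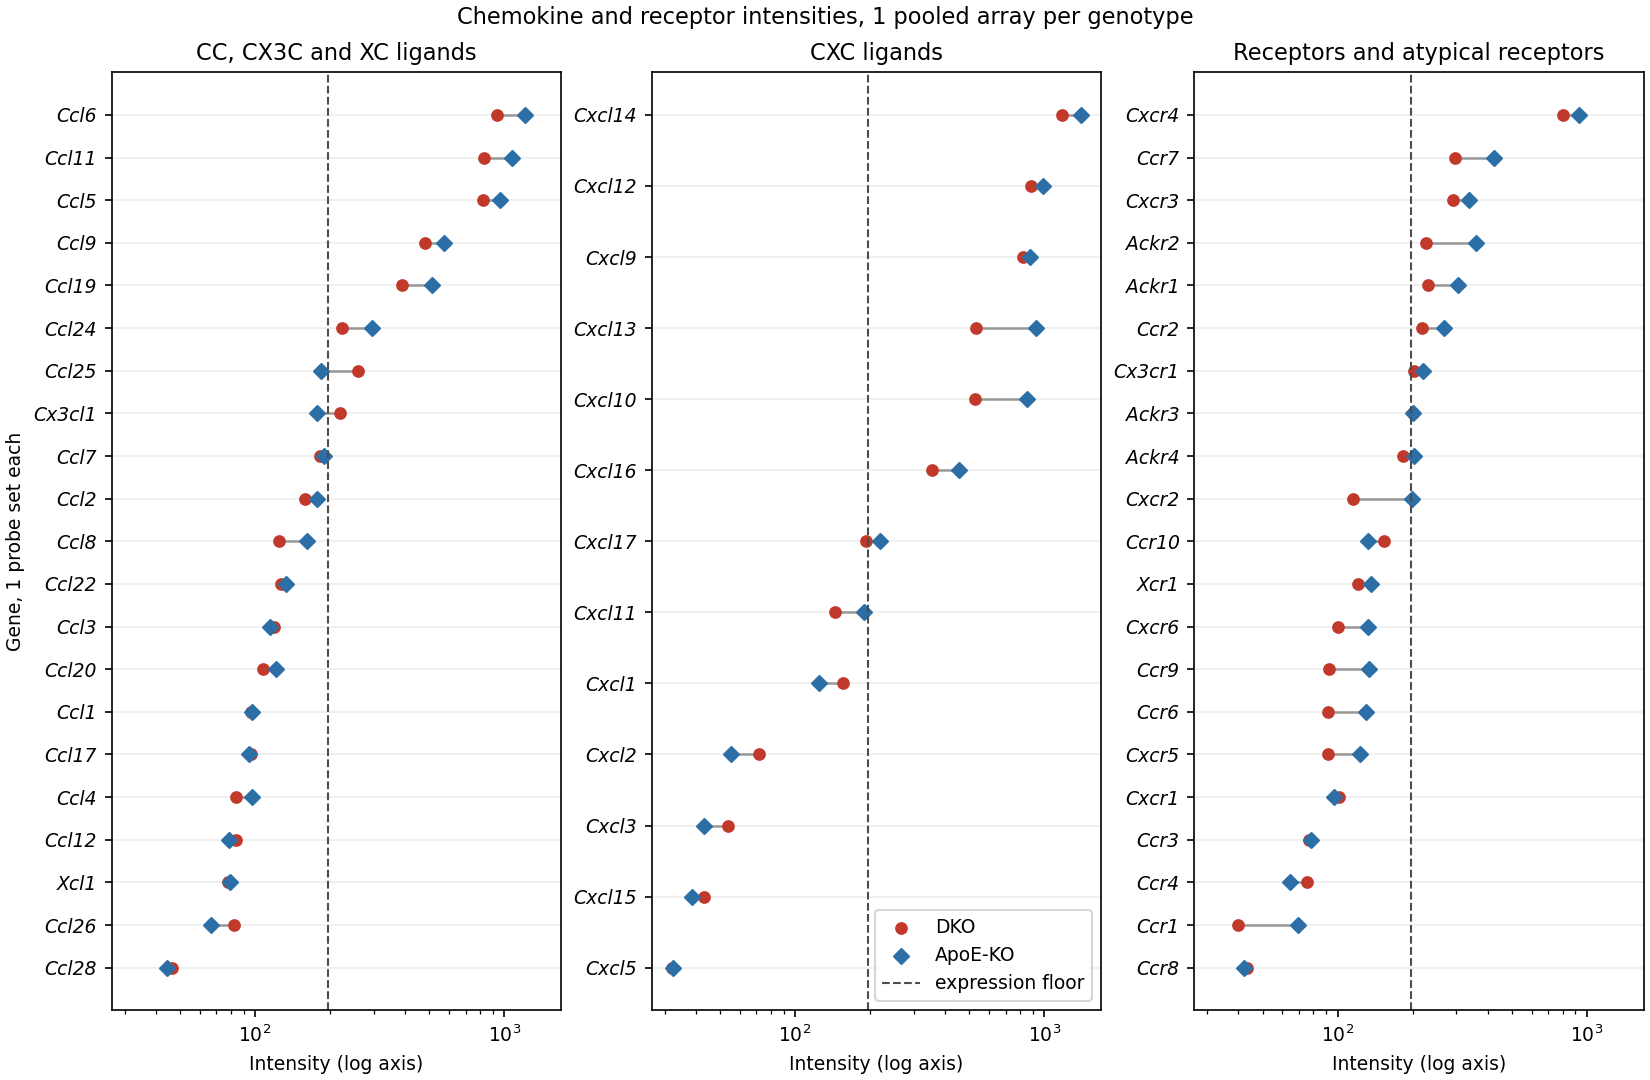
Intensity of all 55 members on a log axis in the DKO array (circles) and the ApoE-KO array (diamonds), 1 probe set per gene, with a dashed line at the floor of 196.9. Right of the line most circles lie left of their diamonds, and the widest gaps there are those of Cxcl13, Cxcl10 and Ackr2.

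The other 32 members lay below the floor, 19 lower and 13 higher, where 52.9% of all genes below it were lower. At least 1.5-fold lower were 2 of the 32, Ccr1 and Cxcr2, against 1.34% of genes below the floor, and 0 were as much higher, against 1.36%. With the floor at 7.62 on the log2 scale, Cx3cl1 was the nearest member inside it (mean 7.62) and Ackr4 the nearest outside (7.59). Over all 55 members 39 were lower, where 52.1% of all genes were. Their median difference was -0.17, over the 34 ligands -0.12 and over the 17 receptors -0.22, against -0.01 over all genes. CC ligands (19 genes) and CXC ligands (13 genes) had like medians of -0.17 and -0.16 when genes below the floor were included. Above the floor the medians were -0.37 for 7 CC ligands and -0.25 for 7 CXC ligands. There the 15 ligands had a median of -0.26 and the 5 receptors -0.22, the reverse of the order over all members.

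**Figure D2:**
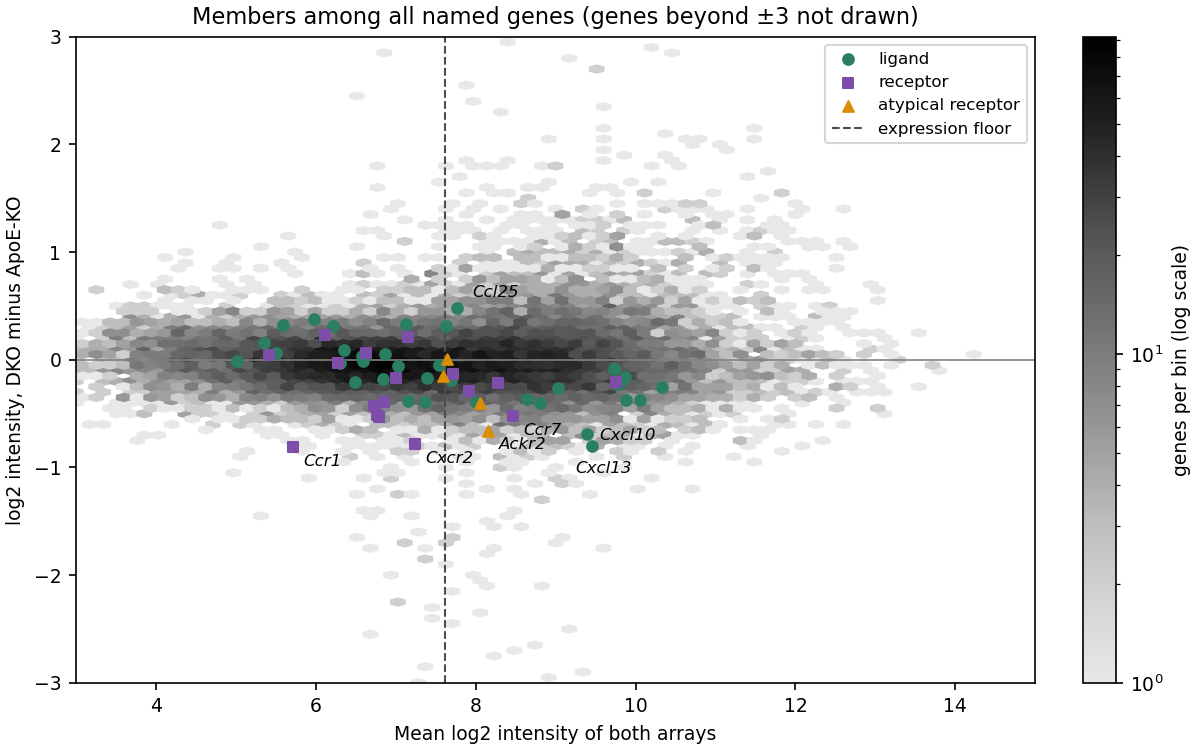
Difference (log2 intensity, DKO minus ApoE-KO) against mean log2 intensity for all named genes (grey bins, darker for more genes) and for the members by kind, with a dashed line at the floor. Members right of the line sit mainly in the lower part of the grey cloud and none lies beyond -1 or 1.

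The lymphoid homing chemokines, which place lymphocytes in lymph nodes and lymphoid follicles, gave the lowest role group. All 6 measured members were lower, with a median of -0.42, and 5 of them lay above the floor. Cxcl13, the B cell attractant of follicles, read 531 in the DKO-labelled array and 925 in the ApoE-KO-labelled array, lower by 1.74-fold (-0.80). Its receptor gene Cxcr5, carried by B cells and follicular helper T cells, read 91.2 in the DKO-labelled array and 123 in the ApoE-KO-labelled array (-0.43), both below the floor. Both partners of the follicle axis were thus lower in the DKO-labelled array, but only the ligand lay above the floor. Ccl19, which draws naive T cells and dendritic cells, read 389 in the DKO-labelled array and 513 in the ApoE-KO-labelled array (-0.40). Its receptor gene Ccr7 read 296 in the DKO-labelled array and 425 in the ApoE-KO-labelled array (-0.52). Ligand and receptor were here displaced the same way and by similar amounts, both above the floor.

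The Ccl19 reading is uncertain as to its source. Its 5 probe sets differed by -0.41 to -0.40, and 2 of them held identical values in both arrays, so near-identical gene copies could not be told apart. The Ccl21 genes, the other ligands of CCR7, and the Ccl27 genes were not analysed here, because the 7 probe sets whose annotation included them named several genes at once. Cxcl12, the stromal retention factor for many leukocytes and progenitors, read 885 in the DKO-labelled array and 991 in the ApoE-KO-labelled array (-0.16). Its receptor gene Cxcr4 read 803 in the DKO-labelled array and 929 in the ApoE-KO-labelled array (-0.21). The CXCL12 axis thus differed least among the lymphoid axes.

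Markers of B cells were lower as well. All 9 measured B cell markers were lower, with a median of -1.08, and their summed intensity was 3410 in the DKO-labelled array and 6856 in the ApoE-KO-labelled array. The antigen receptor component genes Cd79a (-1.10) and Cd79b (-0.79) and the B cell surface gene Ms4a1 (-1.16) were the most intense of them. Of the lymph node stroma markers 5 of 7 were lower, where 52.1% of all genes were, with a median of -0.29. Their sum was 3633 in the DKO-labelled array and 4202 in the ApoE-KO-labelled array. This list shares Fcer2a (-1.15) and Cr2 (-1.11) with the B cell list. The lower sum came from these shared genes, and without them the list did not sum lower in the DKO-labelled array. The most intense gene of the list, Mfge8 of follicular dendritic and many other cells, stood at 0.14. Tnfsf11 stood at 0.17, and Chst4 (-0.03) and Madcam1 (-0.29) lay below the floor. Glycam1, a mucin of high endothelial venules, read 468 in the DKO-labelled array and 621 in the ApoE-KO-labelled array (-0.41). No marker of either list was at 0 in an array, and the part of B cells or node tissue in the lymphoid chemokine differences was not tested.

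The interferon-induced ligands of CXCR3, a receptor of activated T and NK cells, differed among themselves. Cxcl10 read 529 in the DKO-labelled array and 850.3 in the ApoE-KO-labelled array, lower by 1.61-fold (-0.69). Cxcl9 read 824 in the DKO-labelled array and 873 in the ApoE-KO-labelled array, at -0.08 the smallest difference of the group. Cxcl11, listed by RefSeq as a transcribed pseudogene in this strain's assembly, read 144 in the DKO-labelled array and 189.8 in the ApoE-KO-labelled array (-0.39), below the floor. The receptor gene Cxcr3 read 290 in the DKO-labelled array and 337 in the ApoE-KO-labelled array (-0.22). All 4 were lower, yet Cxcl10 and Cxcl9, adjacent genes known to be induced by interferon gamma, stood 1.61-fold and 1.06-fold apart between the arrays.

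Start-site regions of 2 interferon-induced and 2 lymphoid ligands are shown because the first pair differed in size and the second held the lowest member above the floor. Each spans 250 bases before to 50 after the start of the gene in RefSeq's GRCm38.p6 annotation. Capitals mark matches, on either strand, to GAAANNGAA, from the core of the interferon-stimulated response element, or to 2 kappaB-like patterns that may overlap each other, the wide GGGANNTTC and the narrow GGGANTTCC. All 3 were chosen after the sequences had been seen.
Cxcl10, chr5:92348840-92349139, minus strand: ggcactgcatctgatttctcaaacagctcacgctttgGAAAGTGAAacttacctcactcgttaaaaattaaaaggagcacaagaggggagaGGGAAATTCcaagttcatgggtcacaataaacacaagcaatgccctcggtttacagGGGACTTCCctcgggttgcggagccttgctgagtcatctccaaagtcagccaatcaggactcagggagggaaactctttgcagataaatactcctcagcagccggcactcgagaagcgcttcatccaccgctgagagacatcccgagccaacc
Cxcl9, chr5:92328030-92328329, minus strand: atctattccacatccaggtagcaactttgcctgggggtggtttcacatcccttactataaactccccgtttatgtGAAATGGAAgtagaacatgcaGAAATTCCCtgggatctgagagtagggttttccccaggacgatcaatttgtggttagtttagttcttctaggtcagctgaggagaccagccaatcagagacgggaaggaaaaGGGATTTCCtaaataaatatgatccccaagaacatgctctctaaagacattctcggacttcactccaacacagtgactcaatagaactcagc
Cxcl13, chr5:95956689-95956988, plus strand: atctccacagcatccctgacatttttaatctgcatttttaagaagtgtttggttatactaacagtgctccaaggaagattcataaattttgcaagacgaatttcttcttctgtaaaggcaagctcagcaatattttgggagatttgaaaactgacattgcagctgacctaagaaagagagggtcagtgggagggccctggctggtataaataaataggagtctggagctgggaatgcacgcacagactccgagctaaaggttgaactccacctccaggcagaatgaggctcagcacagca
Ccl19, chr4:42756316-42756615, minus strand: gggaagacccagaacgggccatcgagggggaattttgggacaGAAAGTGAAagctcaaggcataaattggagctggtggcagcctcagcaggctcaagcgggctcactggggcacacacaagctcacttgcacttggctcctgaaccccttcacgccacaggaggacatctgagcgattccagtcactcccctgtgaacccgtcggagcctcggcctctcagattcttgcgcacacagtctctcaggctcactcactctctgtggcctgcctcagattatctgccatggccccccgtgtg

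Cxcl10 and Cxcl9 each held all 3 patterns, Ccl19 the interferon element core alone, and Cxcl13 none of them in this window. RefSeq start-site regions numbered 43 for 41 members. The interferon element core was present in 8 of the 43 (18.6%), against 8.56% of all 32851 regions of the same length. The wide kappaB-like pattern was also present in 8 member regions (18.6%), against 3.94% of all. Its other genes were Ccl1, Ccr3, Cxcr2 and the neutrophil ligand genes Cxcl1, Cxcl2 and Cxcl3. The narrow pattern was present in 4 member regions (9.3%), against 1.68% of all, the other genes being Ccl25 and Ccr6. Genes with a kappaB-like match thus included some that were lower (Cxcl10, -0.69) and some that were higher (Cxcl2, 0.38). A match of letters is a description and not a bound site. The 4 printed regions are counted in the member shares. Because the patterns were chosen after the sequences had been seen, the shares test no enrichment.

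T and NK cell markers were lower, as was the CXCR3 group. All 10 measured markers were lower, with a median of -0.31, or -0.63 over the 7 above the floor, and their summed intensity was 3413 in the DKO-labelled array and 4907 in the ApoE-KO-labelled array. Cd3g (-0.65), Cd2 (-0.69) and Cd8a (-0.64), all T cell surface genes, were the most intense. The NK and cytotoxic cell genes Nkg7 (-0.07), Klrb1c (-0.17) and Ncr1 (-0.19) differed less. So did the T cell genes Cd3d (-0.18), Cd247 (-0.21) and Cd3e (-0.41). Klrb1c, Ncr1 and Cd3d lay below the floor, and Nkg7, Cd247 and Cd3e above it. These genes were named after their values were seen. No marker was at 0, and their part in the differences of the CXCR3 group was not tested.

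Ligands that act on monocytes and macrophages were lower by small amounts. Ccl6, a macrophage and neutrophil product of rodents, read 933 in the DKO-labelled array and 1208 in the ApoE-KO-labelled array (-0.37). Ccl9, a related rodent CCR1 ligand, read 480.1 in the DKO-labelled array and 575 in the ApoE-KO-labelled array (-0.26). Ccl5, a product of T cells and platelets that binds CCR1 and CCR3, read 823 in the DKO-labelled array and 960.3 in the ApoE-KO-labelled array (-0.22). All 3 lay above the floor and were lower in the DKO-labelled array. Their receptor gene Ccr1 had the lowest difference of the family, -0.81, but its intensities of 39.7 in the DKO-labelled array and 69.7 in the ApoE-KO-labelled array were far below the floor. Of the other inflammatory CC ligands, Ccl4 stood at -0.21 and Ccl3 at 0.05, both below it.

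In the CCR2 axis of monocyte entry only the receptor gene lay above the floor, and it was lower. Ccr2 itself read 219 in the DKO-labelled array and 267 in the ApoE-KO-labelled array (-0.29). Its ligand genes Ccl2 (-0.17), Ccl7 (-0.05) and Ccl12 (0.09) were all below the floor, at 84.2 to 183 in the DKO-labelled array and 78.9 to 189 in the ApoE-KO-labelled array. Ccl8, an inflammatory CC chemokine, also lay below the floor and stood at -0.38. Of the macrophage and monocyte markers 10 of 11 were lower, with a median of -0.46 and an intensity sum of 9501 in the DKO-labelled array and 13278 in the ApoE-KO-labelled array. Lyz2 (-0.46), C1qa (-0.36) and Cd68 (-0.51) were the most intense, no marker was at 0, and their part in the chemokine differences was not tested. The ligand genes Ccl6, Ccl9 and Ccl5, at -0.37 to -0.22, stood closer to 0 than the macrophage marker median. Ccl24 (-0.39), a ligand gene made largely by macrophages, did so too. Above the floor, the markers C1qa, Adgre1 (-0.32) and Mertk (-0.31) lay nearer to 0 than Ccl6 and Ccl24. Ccl9 and Ccl5 lay nearer to 0 than every marker above the floor. Adgre1 and Mertk were named after their values were seen.

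The eosinophil attractants were lower together. Ccl11 (eotaxin), made by stromal cells, read 827 in the DKO-labelled array and 1074 in the ApoE-KO-labelled array (-0.38). Ccl24 (eotaxin 2), made largely by macrophages, read 223 in the DKO-labelled array and 294 in the ApoE-KO-labelled array (-0.39). Both differences had nearly the same size, while the shared receptor gene Ccr3 (-0.03) and the third ligand gene Ccl26 (0.32) were below the floor. Fibroblast and progenitor markers, a source of stromal chemokines, were lower in 7 of 7 with a median of -0.57 and an intensity sum of 15777 in the DKO-labelled array and 23265 in the ApoE-KO-labelled array. Dcn (-0.46), Col1a1 (-0.49) and Col3a1 (-0.79), matrix genes of fibroblasts, were the most intense of them, none was at 0, and their part in the Ccl11 difference was not tested. Eosinophil and neutrophil markers lay below the floor in 9 of 9, with a median of -0.04 and a sum of 840.4 in the DKO-labelled array and 834 in the ApoE-KO-labelled array.

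The neutrophil attractants ran the other way, all below the floor. Cxcl1 read 156 in the DKO-labelled array and 124 in the ApoE-KO-labelled array (0.33). Cxcl2 read 72.0 in the DKO-labelled array and 55.3 in the ApoE-KO-labelled array (0.38). Cxcl3 read 53.9 in the DKO-labelled array and 43.2 in the ApoE-KO-labelled array (0.32). These ligands of CXCR2 were higher in the DKO-labelled array by similar amounts, while Cxcl15 stood at 0.16 and Cxcl5 at -0.02. The receptor gene Cxcr2 had the third lowest difference of the family after Ccr1 and Cxcl13, -0.79, with intensities of 115.5 in the DKO-labelled array and 199.0 in the ApoE-KO-labelled array, and Cxcr1 stood at 0.07. Since none of these means reached the floor, no gene of the group counts toward the differences above the floor.

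**Figure D3:**
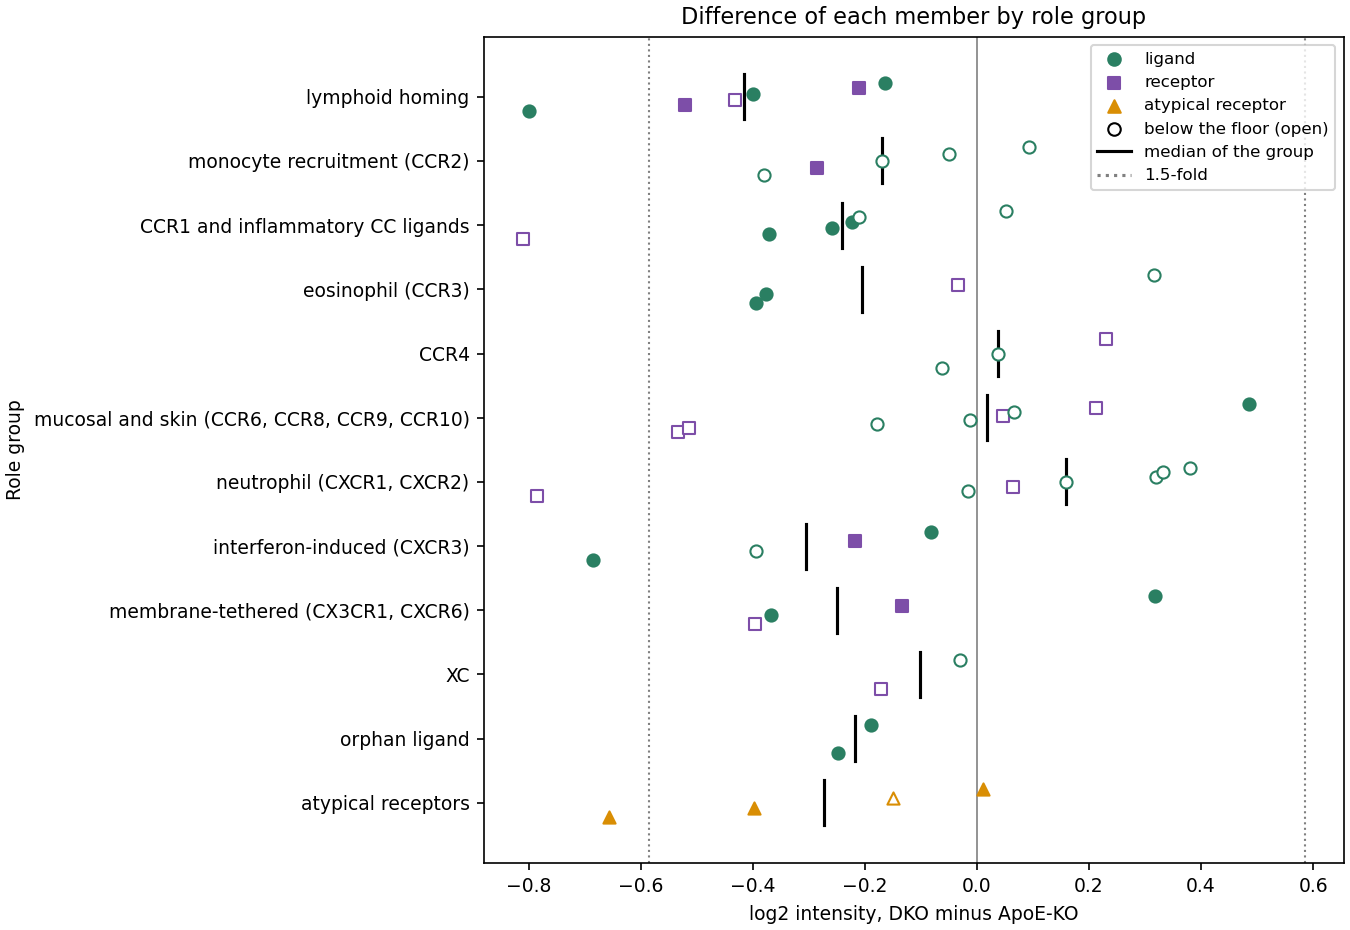
Difference of each of the 55 members (log2 intensity, DKO minus ApoE-KO) by role group, with ligands as circles, receptors as squares and atypical receptors as triangles. Filled marks lie on or above the floor, open marks below it, black bars are group medians and dotted lines mark 1.5-fold. The lymphoid homing group lies wholly below 0, and the filled marks above 0 are Ccl25, Cx3cl1 and Ackr3.

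Only 3 members above the floor were higher in the DKO-labelled array. Ccl25, the thymic and intestinal ligand of CCR9, read 259 in the DKO-labelled array and 185 in the ApoE-KO-labelled array, higher by 1.40-fold (0.49). Its other probe set read 128 in the DKO-labelled array and 94.2 in the ApoE-KO-labelled array (0.44), and the receptor gene Ccr9 lay below the floor and stood at -0.53. Ccl25 was thus higher by both probe sets, opposite in sign to its receptor. Cx3cl1 (fractalkine), a ligand tethered to the membrane of endothelial and other cells, read 220.2 in the DKO-labelled array and 177 in the ApoE-KO-labelled array (0.32). The receptor gene Cx3cr1 of monocytes and macrophages read 202 in the DKO-labelled array and 221 in the ApoE-KO-labelled array (-0.13). The ApoE-KO readings of Ccl25 and Cx3cl1 lay under the floor, so the difference of each ligand has 1 reading on either side of it, while both readings of Cx3cr1 lay above it. With the mean over its 2 probe sets, Ccl25 itself lay under the floor. Ackr3, the third, differed by 0.01.

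The other membrane-tethered ligand gene, Cxcl16, whose product is also a scavenger receptor of macrophages, read 353 in the DKO-labelled array and 455 in the ApoE-KO-labelled array (-0.37). Its receptor gene Cxcr6 stood at -0.40, below the floor. The 2 tethered ligands were thus displaced in opposite directions. Skin and mucosal members were nearly all below the floor, from -0.53 (Ccr9) to 0.21 (Ccr10) apart from Ccl25, with Ccr6 at -0.51. The CCR4 axis of Ccl17, Ccl22 and Ccr4 ran from -0.06 to 0.23 and the XC pair, Xcl1 and Xcr1, from -0.17 to -0.03, again below the floor.

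Cxcl14, an epithelial and adipose chemokine that brown fat is known to secrete in mice, read 1179 in the DKO-labelled array and 1401 in the ApoE-KO-labelled array (-0.25). It was lower in the array in which Ucp1 read 10.2-fold higher. Cxcl17, a mucosal chemokine, read 193 in the DKO-labelled array and 220.3 in the ApoE-KO-labelled array (-0.19).

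Among the atypical receptors, Ackr2, the scavenger of inflammatory CC chemokines on lymphatic endothelium, read 227 in the DKO-labelled array and 358 in the ApoE-KO-labelled array, lower by 1.58-fold (-0.66). Ackr1, which presents chemokines on venules and red cells, read 232 in the DKO-labelled array and 305 in the ApoE-KO-labelled array (-0.40). Ackr3, the scavenger of CXCL12, read 201 in the DKO-labelled array and 199.85 in the ApoE-KO-labelled array, practically alike. Ackr4, the scavenger of CCL19 and CCL25, stood at -0.15, just under the floor. The receptors that bind inflammatory chemokines were thus lower and the CXCL12 scavenger was level. Endothelial markers were lower in 5 of 8, where 52.1% of all genes were lower, with a median of -0.09. Their intensity sum was 6624 in the DKO-labelled array and 7045 in the ApoE-KO-labelled array. The most intense, Pecam1 (-0.12), Cdh5 (0.11) and Kdr (0.20), differed little, while Tek (-0.41), another blood vessel gene above the floor, was lower. The lymphatic genes Lyve1 (-0.40) and Prox1 (-0.63, below the floor) were also lower. Tek, Lyve1 and Prox1 were named after their values were seen. No endothelial marker was at 0, and their part in the Ackr2 difference was not tested.

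Known partners were set side by side. Of 33 ligand and receptor pairs with both genes measured, which share genes and so are no independent items, both partners were lower in 18 and the signs matched in 20. Taken singly, 23 of 34 ligands, 13 of 17 receptors and 3 of 4 atypical receptors were lower. Pairs with both partners lower are therefore frequent whatever the pairing, and a link between partners was not tested. Both partners lay above the floor and were lower for Ccl19 with Ccr7, Cxcl12 with Cxcr4, and Cxcl9 and Cxcl10 with Cxcr3. The pairs with opposite signs included Ccl25 with Ccr9, Cx3cl1 with Cx3cr1, and Cxcl1, Cxcl2 and Cxcl3 with Cxcr2.

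Many members are neighbours in the genome, counted here in RefSeq's gene order with at most 3 other protein-coding genes between them. Runs of 3 or more are described first. Over all genes 52.1% were lower. The run of neutrophil ligands, Cxcl5, Cxcl3, Cxcl15, Cxcl1 and Cxcl2, had a median of 0.32 with 1 of 5 lower, all 5 below the floor. The run of Cxcl9, Cxcl10 and Cxcl11 had a median of -0.39 with 3 of 3 lower, Cxcl11 below the floor. The medians of these CXC runs lay on opposite sides of 0, the first from genes below the floor alone. The run of receptor genes Ccr9, Cxcr6, Xcr1, Ccr1, Ccr3 and Ccr2 was lower in 6 of 6, with a median of -0.34. Only Ccr2 (-0.29) of that run lay above the floor. The CC ligand runs were Ccl2, Ccl7, Ccl11, Ccl12, Ccl8 and Ccl1 (median -0.11, 5 of 6 lower) and Ccl5, Ccl9, Ccl6, Ccl3 and Ccl4 (median -0.22, 4 of 5 lower). In the CC ligand runs the members above the floor were Ccl11, Ccl5, Ccl9 and Ccl6. The run of Ccl22, Cx3cl1 and Ccl17 stood at a median of 0.04. The 3 runs of 2 members, Cxcr2 with Cxcr1, Ccl26 with Ccl24 and Cx3cr1 with Ccr8, each held 1 lower and 1 higher gene.

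Genes that act downstream of the receptors were also mostly lower. Of 34 measured signalling genes 24 were lower, where 52.1% of all genes were, and the median of the 34 was -0.26. Above the floor lay 32, with 4 of the 32 (12.5%) at least 1.5-fold lower, against 3.73% of all genes above the floor, and 2 of the 32 as much higher, against 7.57%. The 4 lower ones were Dock2 (-0.80), the leukocyte activator of Rac, Rac2 (-0.75), the blood cell Rac, Pik3cd (-0.71), a leukocyte PI3-kinase subunit, and the receptor kinase gene Grk6 (-0.62). Rgs2, which shortens G protein signals, read 435 in the DKO-labelled array and 162 in the ApoE-KO-labelled array (1.42), and Grk3, a receptor kinase, read 379.8 in the DKO-labelled array and 170.4 in the ApoE-KO-labelled array (1.16). Both genes act as brakes on many receptors besides those of chemokines. Other brakes on the list were lower, among them Grk6, Rgs18 (-0.58) and the arrestin genes Arrb1 (-0.30) and Arrb2 (-0.25), so the brakes had no common direction. The lower brakes and Pik3cd were named after their values were seen.

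Of 9 related genes outside the families by name, 6 were lower, where 52.1% of all genes were, and the median was -0.25. The 3 higher ones were Mif (0.14), above the floor, and Ccrl2 (0.32) and Ppbp (0.21), below it. These 3 were named after their values were seen. Dpp4, a peptidase that trims chemokines and marks progenitors, stood at -0.77, the chemerin receptor gene Cmklr1 at -0.76, Rarres2, which encodes chemerin, at -0.25 and Cmtm3 at -0.28. Among genes that induce chemokines, 10 of 12 above the floor were lower, where 51.4% of all genes above it were. The median over all 16 measured was -0.20. Ltb, the lymphotoxin subunit that drives Cxcl13 and Ccl19 in lymph nodes, read 336 in the DKO-labelled array and 537 in the ApoE-KO-labelled array (-0.67). Irf7, an interferon response factor, stood at -0.58, the NF-kappaB feedback genes Tnfaip3 at -0.52 and Nfkbia at -0.28. Tnf read 209 in the DKO-labelled array and 228 in the ApoE-KO-labelled array (-0.13), while Il6, Il1b and Ifng were below the floor in both arrays and differed by 0.04 to 0.12. These 4 cytokine genes were named after their values were seen.

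**Figure D4:**
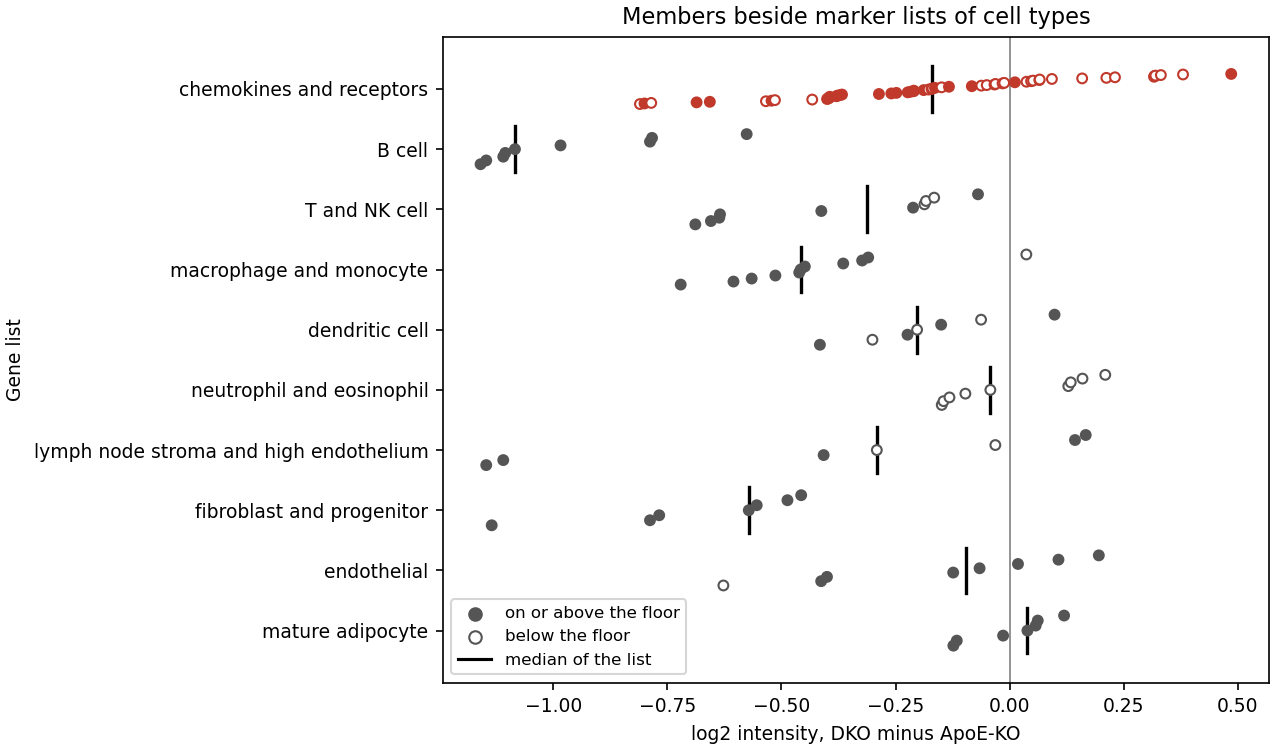
Difference of each gene (log2 intensity, DKO minus ApoE-KO) for the 55 members and for marker lists of cell types in the depot, with filled marks on or above the floor, open marks below it and black bars at the medians. The members' median of -0.17, with 32 of the 55 below the floor, lies between those of adipocyte markers (0.04) and of macrophage (-0.46) and B cell markers (-1.08).

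Set beside the cell markers, the members differed less by median than B cell, T cell, macrophage and fibroblast markers and more than adipocyte markers. The lists are unlike in signal, with 32 of 55 members below the floor, against 1 of 11 macrophage and 0 of 9 B cell markers. Above the floor the order was the same, with medians of -0.26 for members, -0.46 for macrophage and -0.57 for fibroblast markers. The members' summed intensity was 14294 in the DKO-labelled array and 17225 in the ApoE-KO-labelled array, a log2 ratio of -0.27. The same ratio was -1.01 for B cell markers, -0.52 for T and NK cell markers, -0.48 for macrophage markers, -0.56 for fibroblast markers and -0.21 for dendritic cell markers, led by Cd209a (-0.42). It was -0.21 for lymph node stroma markers, -0.09 for endothelial markers and -4.35 for skeletal muscle markers. Adipocyte markers had 0.02, and neutrophil and eosinophil markers 0.01. Among genes above the floor, Cxcl13 (-0.80) stood between the medians of T and NK cell (-0.63) and B cell markers (-1.08), and Ccr7 (-0.52), Cxcr4 (-0.21) and Cxcl12 (-0.16) nearer to 0 than either. These are values of 2 arrays, and no difference between lists was tested.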

How the data were processed

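The authors deposited 1 linear intensity per probe set and array, a unit read from the values. How arrays were scanned, background-corrected, summarised and scaled was not given in the sources used here. Of 35557 probe sets, 21789 had 1 gene symbol in the platform annotation, 1621 with several were not used, and 12147 have no name here. All 55 members matched RefSeq (GRCm38.p6) by Entrez identifier under the same symbol. Where a gene had several probe sets (2 members), the brightest on average was taken.

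Log2 intensities were subtracted (DKO minus ApoE-KO) with no pseudocount, and sizes were counted at 1.5-fold and 2-fold. With 1 array per genotype no test was possible, and the number of arrays limits precision. All members above the floor are named, with those below it by size or partner. The members and the role, pathway and marker lists were chosen with earlier results of these data known. Alternatives were quantile normalization, median centring, loess (span 0.4), an offset of 50, the mean of probe sets, other floors, low values set to the floor, members above the floor only, and leaving out the lymphoid list. Counting was run on simulated data with planted changes larger than any member difference, which checks the counting code and not these arrays. Python 3.11.15, pandas 2.3.3 and statsmodels 0.14.6 were used.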

Additional observations from a re-analysis of the deposited data

How the results depend on the processing

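Of 150 differences of the 25 members above the floor or past 1.5-fold, recomputed under 6 alternatives, 149 kept their sign and 145 moved by less than 0.1. The other 5 were Ccr1 (-0.42) and Cxcr2 (-0.59) with an offset of 50, and Ccr1 (0.00), Cxcr2 (-0.02) and Cx3cl1 (0.16) with low values set to the floor. Many of these values could hardly move. Only 2 members had several probe sets, so the mean over probe sets left the others as they were. An offset cannot change a sign, and median centring shifted every gene alike by less than 0.1. Setting low values to the floor left alone each member with both readings above it. The counts of 149 and 145 are thus a weak check. With the mean over probe sets Ccl25 lay under the floor, leaving 22 members there, 20 lower and 2 higher. With an offset of 50, Ackr2 no longer reached 1.5-fold, leaving Cxcl13 and Cxcl10. Without a floor, 5 members were at least 1.5-fold lower, the added ones being Ccr1 and Cxcr2. With the floor at percentile 75, 10 of 10 members were lower. Median centring left 20 of 23 lower while the median of all genes above the floor moved to 0.04. Setting low values to the floor moved to 0.00 the medians of all members, ligands, receptors and the CCR2, neutrophil and XC groups, by construction, since most members lay below it. It also gave -0.31 for the lymphoid, -0.11 for the CCR1, -0.15 for the CXCR3 and -0.0665 for the tethered group. With members above the floor only, medians were -0.26 for ligands, -0.29 for the CCR2 group, -0.39 for the eosinophil group, 0.49 for the mucosal and skin group, -0.13 for the tethered group and -0.40 for the atypical receptors, from fewer genes. The other 141 of 158 recomputed counts and medians differed by less than 0.1 (medians) or by at most 1.5 times (counts). No paired analysis was possible because each genotype had 1 array. Low signal limits the 32 members below the floor.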
